A study of Macrobrachium nipponense with 4 samples.

Results

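Among 58871 contigs assembled from the hepatopancreas of the oriental river prawn (Macrobrachium nipponense), 92 were low in the library of prawns kept in nitrite for 28 days and well counted in both unexposed libraries. They were chosen by their values: at least 2 CPM (a count as a share of its column total, scaled to parts per 1000000) in the 24 h control and in the 28 day control, and at most 25% of the smaller of these levels in the chronic nitrite library. The minimum level was reached by 11645 contigs, so the 92 were 0.790% of those that could be chosen. The drop in the chronic nitrite library is thus how the contigs were picked, and it is given below as a description without a test.

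The study exposed juvenile prawns to nitrite in the rearing water and sequenced total RNA of the hepatopancreas. The acute experiment had a control sampled at 24 h with 0 mg/l nitrite (the 24 h control), the chronic one a control sampled at 28 days, or 4 weeks, with 0 mg/l (the 28 day control), and the chronic nitrite group at 28 days with 6.555 mg/l. Each group had 1 library, labelled with 9 prawns and not said to be pooled or separate, from an experiment of 12 tanks with 50 prawns each in freshwater. All groups shared the feeding and the daily water change, and strain and sex are not given in the labels used here. A label field describes the chronic pair as sampled after acute exposure, so groups were taken from the treatment field. The acute nitrite group (26 mg/l for 24 h) was not analysed here, because no column name matched its labels, and whether the 92 contigs were also low at 24 h was therefore not measured. Contig IDs carry no gene names, so neither the tissue nor any gene function could be checked against marker genes.

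Nitrite enters freshwater crustaceans mainly across the gills, where it is taken up in place of chloride, and it impairs oxygen transport by the haemolymph protein hemocyanin. The hepatopancreas makes digestive enzymes, absorbs and stores nutrients, synthesises hemocyanin and detoxifies foreign compounds. An assembled contig is a stretch of transcript sequence, and several contigs can come from 1 gene as splice forms, allelic forms or fragments.

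The libraries held 21215108 counts (24 h control), 26366818 (28 day control) and 24818146 (chronic nitrite). The minimum of 2 CPM corresponded to 42.4, 52.7 and 49.6 counts, in the same order. A count of 0 allowed a level of up to 0.121 CPM in the chronic nitrite library, taking 3 counts as the floor. All intervals below are exact 95% intervals for counting error only (Clopper-Pearson), since no group had a replicate. Contig lengths are not in the table, so a CPM is compared between libraries for the same contig, and an order of contigs by CPM is an order of read counts.

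The 92 contigs together made up 0.355% of all counts in the 24 h control (0.352 to 0.357) and 0.416% in the 28 day control (0.413 to 0.418). In the chronic nitrite library they made up 0.0192% (0.0187 to 0.0198). A fall of this kind in a whole organ can come from fewer cells of a type or from less RNA per cell, which cannot be told apart in bulk RNA. A single contig, mniContig46288, held 20.5%, 21.3% and 30.6% of these counts in the 24 h control, the 28 day control and the chronic nitrite library. Without it, the other members made up 0.282%, 0.327% and 0.0133% of the libraries.

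A typical member was moderately counted in the unexposed libraries and almost missing after chronic nitrite. The 24 h control had from 48 to 15448 counts per member with a median of 297, and the 28 day control from 53 to 23312 with a median of 242. The chronic nitrite library had from 0 to 1458 counts with a median of 4. The median log2 ratio of chronic nitrite was -5.47 to the 28 day control and -5.63 to the 24 h control, with counts of 0 set to the floor. Over all 11645 contigs at the minimum level these medians were 0.20 and 0.14. For 78 members both counting intervals lay wholly at or below 25% of the unexposed level, and for all 92 they lay at or below 50%. These intervals rest on the counts that chose the members and make no allowance for that choice. They describe the drop and do not test it.

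The most heavily counted member was mniContig46288, with 15448 counts in the 24 h control, 23312 in the 28 day control and 1458 in the chronic nitrite library. These are 728, 884 and 58.7 CPM. The unexposed libraries were thus close to each other and the nitrite library was far below both. Its log2 ratio of chronic nitrite was -3.91 to the 28 day control (-3.99 to -3.83) and -3.63 to the 24 h control (-3.71 to -3.55).

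The next 9 members by the smaller unexposed level showed drops of different size. mniContig27223 had 200 CPM in the 24 h control, 392 in the 28 day control and 8.86 in the chronic nitrite library. mniContig45458 had 121, 181 and 11.7 CPM, in the same order. mniContig4560 had 111, 252 and 16.4 CPM. In each of these the 28 day control was the highest library and chronic nitrite remained countable.

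A similar profile was seen in mniContig30832, with 91.5 CPM in the 24 h control, 233 in the 28 day control and 10.5 in the chronic nitrite library. mniContig4652 had 90.5, 291 and 17.7 CPM, and mniContig47169 had 69.0, 234 and 14.4 CPM. Together with mniContig46288, mniContig45458 and mniContig4560, these made 6 of the first 10 members. Their log2 ratios of chronic nitrite to the 28 day control lay between -4.48 and -3.91, and they were grouped by this ratio after it was seen. To the 24 h control the log2 ratios of the same 6 spread more widely, from -3.63 in mniContig46288 to -2.26 in mniContig47169. All 6 were higher in the 28 day than in the 24 h control. The files do not say whether these contigs belong to 1 gene or several.

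The other 3 of the first 10 were close to absent after chronic nitrite. mniContig45107 had 7252 counts in the 24 h control, 4887 in the 28 day control and 32 in the chronic nitrite library. mniContig3728 had 5041, 2499 and 8 counts, and mniContig15645 had 1379, 2158 and 6. Their log2 ratios to the 28 day control were -7.17 (-7.72 to -6.67), -8.20 (-9.41 to -7.22) and -8.40 (-9.85 to -7.28).

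**Figure D1:**
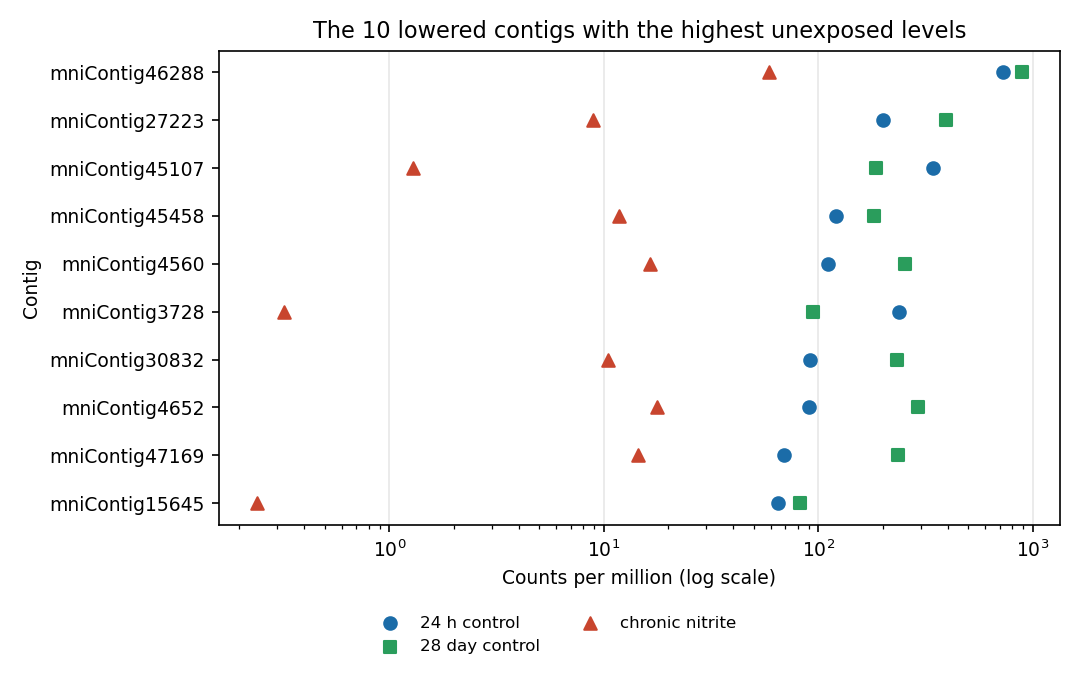
CPM (log scale) of the 10 lowered contigs with the highest smaller unexposed level, 1 point per library. The 3 contigs mniContig45107, mniContig3728 and mniContig15645 sit near or below 1.29 CPM in the chronic nitrite library, and the other 7 between 8.86 and 58.7 CPM.

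The size of the drop covered a wide range with no single typical value. Below the smaller unexposed level, 17 members were lower by 4-fold to 8-fold, 19 by 8-fold to 16-fold, 22 by 16-fold to 64-fold, and 34 by 64-fold or more, with 0 counts set to the floor. These bands were drawn after the values were seen. Of the 56 members lower by at least 16-fold, 42 had at most 3 counts in the chronic nitrite library. Among the contigs not chosen, 64 lay between 25% and 50% of the smaller unexposed level.

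**Figure D2:**
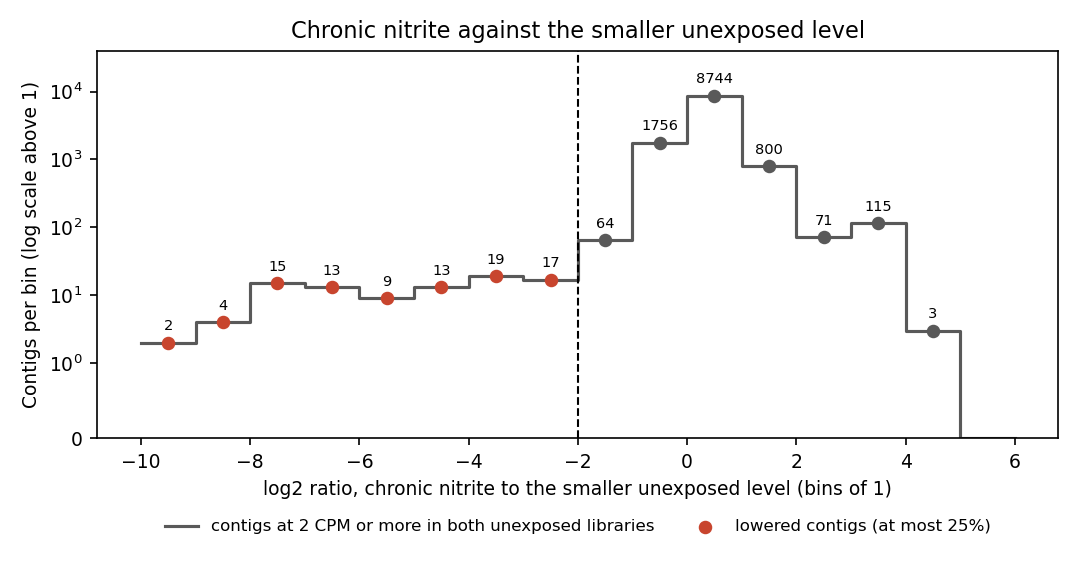
Number of contigs per bin of the log2 ratio of chronic nitrite to the smaller unexposed level, for the 11645 contigs at 2 CPM or more in both unexposed libraries, with the number printed at each point. The dashed line is 25%; the lowered contigs (red) run at 9 to 19 per bin from -8 to -2, while the bin from 0 to 1 holds 8744 contigs.

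Contigs on both sides of the limits had much the same values. Just inside 25%, mniContig12769 had 304, 316 and 73 counts in the 24 h control, the 28 day control and chronic nitrite, or 24.5% of the smaller unexposed level. mniContig2175 was at 23.6% and c3644_g1_i1@@CL at 22.6%. Just outside, mniContig44601 was at 25.3%, c24730_g2_i1@@CL at 27.2% and mniContig3254 at 27.7%. At the limit of 2 CPM, mniContig9189 and mniContig44927 were inside with a smaller level of 2.01 CPM and mniContig2824 with 2.20. Outside it were mniContig43953 at 1.97 CPM, c26029_g1_i1@@MT at 1.86 and mniContig46205 at 1.84.

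Ordered by the ratio of chronic nitrite to the smaller unexposed level, the first 3 members had 1 or 2 counts left. Members with 0 counts come after them only because they are set to the floor of 3 counts. c20516_g1_i3@@ML had 865 counts in the 24 h control, 879 in the 28 day control and 1 in the chronic nitrite library. Its log2 ratio to the 28 day control was -9.69 (-15.00 to -7.21). c16727_g1_i2@@CL had 1106, 1140 and 2 counts, a log2 ratio of -9.07 (-12.11 to -7.21). mniContig45689 had 1068, 715 and 2 counts, with a log2 ratio of -8.39 (-11.44 to -6.54). The intervals are wide because they rest on the few counts of the nitrite library.

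Members with fewer counts in the unexposed libraries showed the same near absence. mniContig9227 had 258 counts in the 24 h control, 336 in the 28 day control and 1 in the chronic nitrite library. mniContig16220 had 484, 243 and 1 counts. In both, the unexposed libraries held at least 243 counts and the nitrite library a single one.

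In the chronic nitrite library 18 members had 0 counts. Their counts ran from 65 to 630 in the 24 h control, with a median of 311, and from 53 to 683 in the 28 day control, with a median of 227. The highest in the 28 day control was mniContig44006, with 618 counts in the 24 h control and 683 in the 28 day control. At the floor of 3 counts in the nitrite library it was at least 214-fold lower than in the 28 day control and at least 241-fold lower than in the 24 h control. Using the wider counting interval, these bounds were 174-fold and 195-fold.

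Other members without a count in the nitrite library included mniContig1110, with 478 and 298 counts in the 24 h and the 28 day control, mniContig2037, with 283 and 241, and mniContig4234, with 275 and 231. The member with 0 counts and the lowest levels, mniContig44927, had 65 and 53. Another 24 members had 1 to 3 counts in the nitrite library, and 50 had more. Only 10 of the 92 kept at least 100 counts there.

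One assembly component accounted for 5 of the near-absent contigs. In IDs of the form c20516_g1_i2@@ML, the first number is the component, g the gene-level group and i the isoform in the naming used by the Trinity assembler, and the ending is a column name, here that of the 28 day control. The table held 5 contigs of component c20516 with this ending, and all 5 were members. c20516_g1_i2@@ML had 543 counts in the 24 h control, 632 in the 28 day control and 0 in the chronic nitrite library. c20516_g1_i6@@ML had 559, 581 and 0 counts, c20516_g1_i4@@ML had 630, 566 and 0, and c20516_g1_i5@@ML had 556, 551 and 0.

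Summed over the component, including c20516_g1_i3@@ML, the counts were 3153 in the 24 h control, 3209 in the 28 day control and 1 in the chronic nitrite library. The unexposed libraries were within 2-fold of each other in all 5 contigs, and the nitrite library held 1 count in all. Isoform contigs of 1 component share sequence and can share reads, so these 5 are not independent observations and may stand for 1 transcript.

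**Figure D3:**
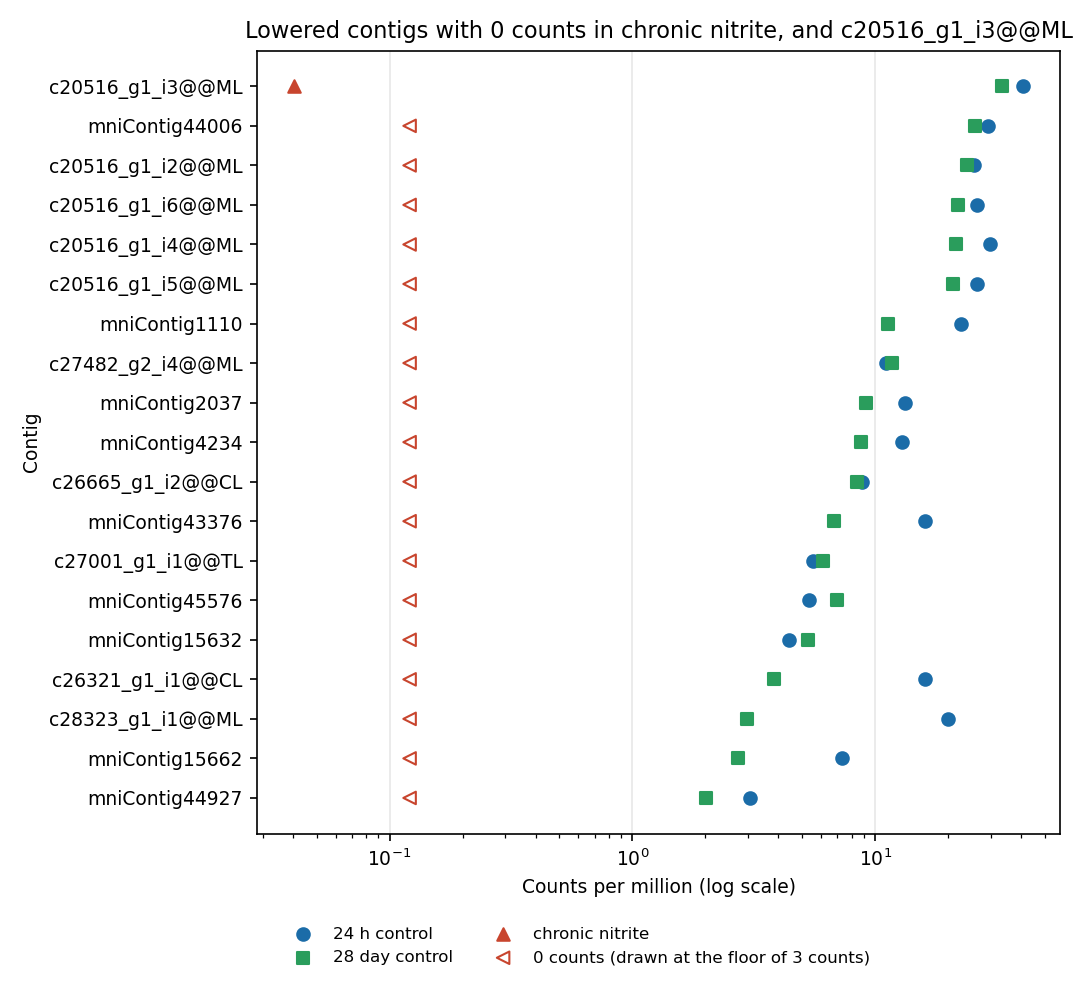
CPM (log scale) of the 18 lowered contigs with 0 counts in the chronic nitrite library, and of c20516_g1_i3@@ML with 1 count; open triangles mark 0 counts, drawn at the floor of 3 counts (0.121 CPM). The 24 h control (circles) and the 28 day control (squares) lie within 2-fold in most rows. They are farthest apart in c28323_g1_i1@@ML (19.9 and 2.96 CPM). They also differ by more than 2-fold in c26321_g1_i1@@CL (16.0 and 3.83 CPM), mniContig43376 (16.0 and 6.75 CPM) and mniContig15662 (7.31 and 2.73 CPM).

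The 20 members with a component ID came from 15 components, which held 21 contigs in the table. The single contig of these components that was no member was c26924_g2_i1@@CL, with 286 counts in the 24 h control, 47 in the 28 day control and 27 in the chronic nitrite library. It had less than 2 CPM in the 28 day control, so it could not be chosen. Both of its component's members were lower in chronic nitrite. c26924_g3_i6@@CL had 287, 700 and 28 counts and c26924_g3_i5@@CL had 48, 107 and 4.

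Among members numbered mniContig, whose numbers carry no stated meaning, 1 pair had consecutive numbers. mniContig3347 had 624 counts in the 24 h control, 342 in the 28 day control and 2 with chronic nitrite, and mniContig3348 had 787, 444 and 4. Their profiles were nearly proportional.

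Members came from both kinds of ID in about the proportion of the contigs that could be chosen. Numbered mniContig made up 72 of the 92 (78.3%) and 80.1% of the 11645. Of IDs with a column-name ending, 10 members ended in the name of the 24 h control, 7 in that of the 28 day control and 2 in the chronic nitrite library's name. These were 2.21% of 452, 1.11% of 633 and 0.337% of 593 contigs at the minimum level. The last ended in a name that matches no label (1 of 637). Of the 18 members with 0 counts in the nitrite library, 9 were numbered mniContig and 9 had a column-name ending, 6 of them that of the 28 day control. Contigs with a column-name ending were 19.9% of the 11645. The 6 include c20516_g1_i2@@ML, c20516_g1_i4@@ML, c20516_g1_i5@@ML and c20516_g1_i6@@ML, which may stand for 1 transcript.

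By the smaller unexposed level, members were found in every class. From 2 to 5 CPM there were 31 members among 5490 contigs (0.565%), from 5 to 10 CPM 20 of 2781 (0.719%), and from 10 to 30 CPM 22 of 2172 (1.01%). From 30 to 100 CPM there were 14 of 802 (1.75%), and at 100 CPM or more 5 of 400 (1.25%). All 18 members with 0 counts in the nitrite library lay below 30 CPM.

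The rule did not set the ratio between the unexposed libraries directly, but it used both, for the minimum and for the smaller level. That ratio is thus not independent of the choice of members, and it is given as a description. The median log2 ratio of the 28 day to the 24 h control was -0.23 over the 92 members and -0.11 over the 11645 contigs. Between these libraries 13 members were at least 2-fold higher in the 28 day control, against 2.64% of all contigs at the minimum level, and 24 were at least 2-fold lower, against 6.81%. These are 14.1% and 26.1% of the members. The 55 others (59.8%) lay within 2-fold, against 90.6% of all. Of the 61 members with at least 5 CPM in both unexposed libraries, 10 were higher and 8 lower. The same was not counted over all contigs at that level, so these numbers cannot be set against a share. This stricter minimum holds for the 28 day control as well, so it removes contigs because they are low there, among them well counted ones of the 24 h control.

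At 4-fold, 1 member (1.09% of the members) was higher in the 28 day control, against 0.155% of all contigs at the minimum level. Lower by 4-fold were 10 members (10.9%), against 1.18% of all. mniContig46182 had 1270 counts in the 24 h control, 100 in the 28 day control and 2 with chronic nitrite. The controls differed by a log2 ratio of -3.98 (-4.29 to -3.69). mniContig16585 had 1595, 157 and 1 counts, a log2 ratio of -3.66 (-3.90 to -3.42). The 10 members had from 261 to 1595 counts in the 24 h control, 63 to 157 in the 28 day control and 0 to 7 in the chronic nitrite library. In these the unexposed libraries themselves were far apart.

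The others of the 10 were c28323_g1_i1@@ML, mniContig46709, mniContig46194, mniContig2621, mniContig46246, mniContig45273, mniContig16494 and c26321_g1_i1@@CL, with log2 ratios of the 28 day to the 24 h control from -2.75 to -2.07. The 1 member in the other direction was mniContig1181, with 60 counts in the 24 h control, 376 in the 28 day control and 7 in the chronic nitrite library. Its log2 ratio between the controls was 2.33 (1.94 to 2.75).

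Among the 13 members at least 2-fold higher in the 28 day control were mniContig47169, mniContig4652, mniContig30832 and mniContig4560, described above. mniContig44229 had 704 counts in the 24 h control, 1934 in the 28 day control and 82 with chronic nitrite, and mniContig52850 had 515, 1518 and 32. mniContig23405 had 141, 573 and 2 counts, c15496_g1_i1@@CL had 86, 326 and 4, and mniContig577 had 92, 307 and 10. In all of these the 28 day control stood above the 24 h control by more than counting error and the nitrite library below both.

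**Figure D4:**
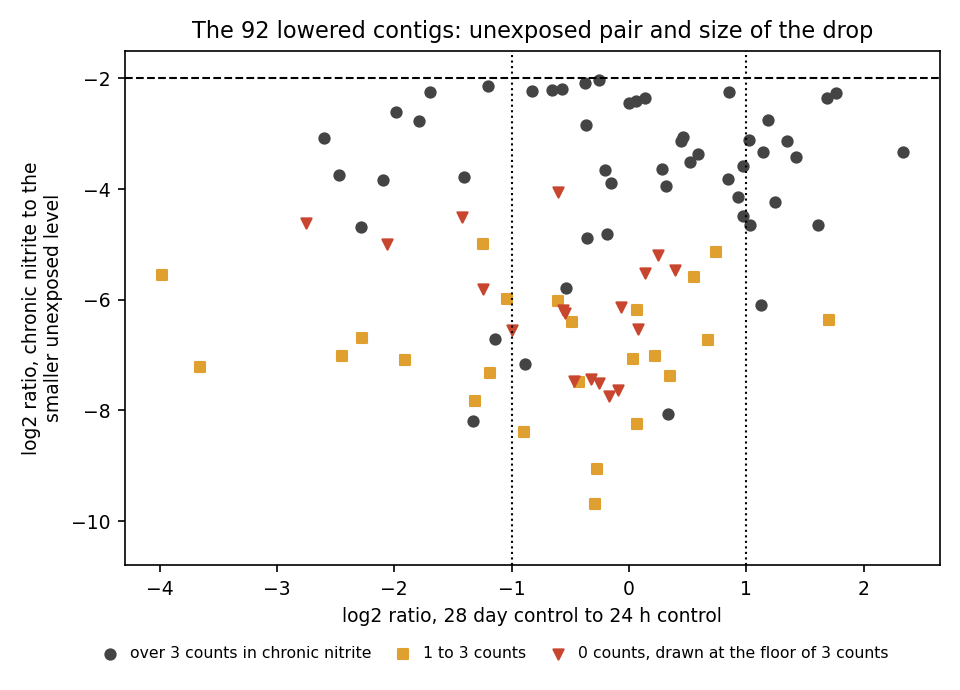
Each point is 1 of the 92 lowered contigs, by the log2 ratio of the 28 day to the 24 h control (x axis) and of chronic nitrite to the smaller unexposed level (y axis); dotted lines mark 2-fold, the dashed line 25%, and symbols the counts in the chronic nitrite library. Of the points, 13 lie at or beyond the right dotted line and 24 at or beyond the left one.

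The 45 members not named by level, drop, control ratio or a count of 0 spanned 48 to 1347 counts in the 24 h control (median 202), 53 to 3067 in the 28 day control (median 191) and 1 to 150 with chronic nitrite (median 10). They lay between 0.556% and 24.5% of their smaller unexposed level. The deepest drops of the 92, down to 0.121% in c20516_g1_i3@@ML and to counts of 0, lie outside this range because those members were named above.

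The same rule was also applied with each unexposed library in the place of the low one, to show how often any library lies far below the other 2. The 24 h control was at most 25% of the smaller of the other libraries on 52 of 12162 contigs (0.428%), and the 28 day control on 39 of 12412 (0.314%). In the 24 h control 5 such contigs had at most 3 counts and 0 had none, and in the 28 day control 3 had at most 3 counts and 1 had none. For the chronic nitrite library these were 42 and 18 among its 92. Its total count lay between those of the other libraries. With 1 library per group these counts have no replicate check and no test. The number of lowered contigs also rested on requiring both controls. Against the 28 day control alone it was 142 of 12742 (1.11%), and against the 24 h control alone 895 of 14150 (6.33%).

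In the mirror direction, 530 contigs had at least 2 CPM in the chronic nitrite library and at least 4 times the larger unexposed level, 3.54% of 14982. This rule asks for a minimum in the nitrite library alone, so it is not like for like with the rule for lowered contigs. Of the 530, 134 also had at least 2 CPM in both unexposed libraries, the minimum that the 92 had to meet. On that shared minimum, 134 of 11645 contigs were raised and 92 of the same 11645 lowered. With TMM factors the rules gave 413 raised and 111 lowered contigs.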

How the data were processed

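Counts of sequencing reads per contig were deposited by the authors as 1 table of whole numbers, not normalized. The submitters' processing notes list the tools HTSeq and BWA (0.7.8-r455) without a role. The assembler, the merging of contigs, any filter and the strand setting are not given in the sources used, and reads shared by similar contigs may have been split or dropped. Columns were matched to samples by name, which gave 3 libraries. There was 1 column of values without a matching label, and it was not used. Of the contig IDs, 0 matched the 32339 genes of the RefSeq table (ASM1510439v2), so no gene names, gene lists or sequences are given.

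CPM used plain column totals over all 58871 contigs. Ratios set counts of 0 to 3 counts, and 95% intervals were exact (Clopper-Pearson, on each pair of counts). Named contigs were the 10 members with the highest smaller unexposed CPM, the 10 with the lowest ratio, the 10 farthest in each direction between the controls (24 h and 28 day), and 3 on each side of each limit. Members sharing a component were named as well. Contigs with 0 counts, the consecutive pair, the bands of drop and the members grouped by their ratio to the 28 day control were chosen after their values were seen. The members and lists were chosen with earlier results of these data known. With 1 library per group no test was made. The rule and intervals were tried on simulated counts with counting error only, and drops were planted only in contigs with a mean of at least 10 CPM. The simulation held no variation between prawns or libraries, so it cannot show how often the rule errs in these data. Alternatives were TMM and upper-quartile factors (edgeR 4.0.16), DESeq2 1.42.0 size factors, totals without the 10 most abundant contigs, other minima and drops, each control alone, and numbered contigs only. Python 3.11.15, pandas 2.3.3, scipy 1.17.1 and R 4.3.3 were used.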

Additional observations from a re-analysis of the deposited data

How the results depend on the processing

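No paired analysis was possible because groups are single libraries. The acute comparison was not run. All 92 contigs stayed lowered with TMM, DESeq2, upper-quartile and reduced totals, which gave 111, 109, 105 and 135 contigs. The TMM factors were 0.981 (24 h control), 0.883 (28 day control) and 1.154 (chronic nitrite). The upper-quartile factors were 1.036, 0.855 and 1.129, in the same order. These and the DESeq2 factors lowered the chronic nitrite level relative to both controls. With them members could not fail the drop limit, so their staying is no check on the choice. Reduced totals also loosen the CPM minimum. The median log2 ratio of chronic nitrite to the 28 day control over the 11645 contigs was 0.20 with plain totals and -0.19 with TMM. Of 54 alternative values, 24 stayed within 1.5 times the count (or the counting interval) and 30 did not. Lowered contigs numbered 61 at a minimum of 5 CPM, 41 at 10 CPM, 1389 without a minimum, 156 at 50%, 142 against the 28 day control alone and 895 against the 24 h control alone. Without a minimum, 1031 had 0 counts in the nitrite library, the median log2 ratio was -0.33, and 232 were 2-fold higher and 627 lower between the controls, where single counts pass the rule. With numbered contigs only, 9 had 0 counts; at 5 CPM, 8 were 2-fold lower between the controls. The lowered contigs held 0.379%, 0.324%, 0.528% and 0.315% of the 24 h control with TMM, 5 CPM, no minimum and numbered contigs only, 0.433%, 0.401%, 0.457% and 0.378% of the 28 day control, and 0.0241%, 0.0184%, 0.0211% and 0.0183% of the chronic nitrite library. The rule for the 28 day control gave 22 contigs at 5 CPM and 2541 without a minimum, that for the 24 h control 26 and 2724, and the mirror rule 306 and 2447. Looser and stricter limits change these counts by construction; for shifts under other settings the cause was not tested.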
